A study of Mus musculus with 2 samples.

Results

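Musclin, encoded by Ostn, is a small peptide that skeletal muscle secretes and that resembles the natriuretic peptides. This account follows Ostn, the natriuretic peptide genes Nppa, Nppb and Nppc, and the receptor genes Npr1, Npr2 and Npr3 in denervated mouse muscle. Members were all probes outside the control classes whose gene name in the scanner files, or whose current symbol by transcript accession, was one of these 7. They came to 13 probes for 7 genes, of 41174 probes and 21970 gene symbols on the array. All 7 genes had a probe, and 11 probes, for 6 genes, were well above background on both arrays. The set was put together with the Ostn difference already known, so its values are given as a description.

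Messenger RNA was measured in the gastrocnemius, a calf muscle, of male C57BL/6 mice aged 9 weeks. In the denervated group the muscle had been without its nerve for 14 days, starting at 7 weeks of age. The other group were control mice, called sham controls in one label and only controls in another, so whether they were operated on is unclear. RNA of 6 mice was pooled in each group, and each pool went onto 1 single-colour Agilent array. No array was repeated, so the differences describe these 2 pools and no test or p-value was possible.

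The natriuretic peptides are hormones that bind receptors at the cell surface. The receptors encoded by Npr1 and Npr2 carry a guanylyl cyclase inside the cell and make the messenger cyclic GMP, whereas the receptor encoded by Npr3 lacks the cyclase and takes peptides up for breakdown. Musclin binds the Npr3 receptor and competes there with the natriuretic peptides, which leaves more of them for the cyclase receptors. In muscle, musclin is known as a peptide released with exercise, and its gene is known to respond to insulin and to be repressed by the transcription factor FoxO1.

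By the brightest probe of each gene, Ostn was lower in the denervated pool by 82.4-fold, and Nppb and Nppa by smaller amounts. The other Nppb probe showed hardly any difference, and the other Nppa probe was not well above background. Npr3 was the only measured member that was higher. Npr1 and Npr2 lay close to no difference, with a sign that changed with the scaling, and Nppc was not well above background in either pool. Each array's signals were set relative to its 75th percentile before comparison, and log2 differences are denervated minus control. The value after ± is the error that the scanner software assigns to a spot, combined over the arrays where it follows a difference. It covers the measurement and no spread between mice. By the brighter probe of each gene, 2 of the 6 measured members were at least 2-fold lower and none was 2-fold higher. Among all 15650 genes measured, 8.52% were lower by 2-fold or more and 6.94% were higher by as much. The median difference was -0.58 over the 6 members and -0.11 over all genes, but the members were chosen on this contrast and nothing is read from that.

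**Figure D1:**
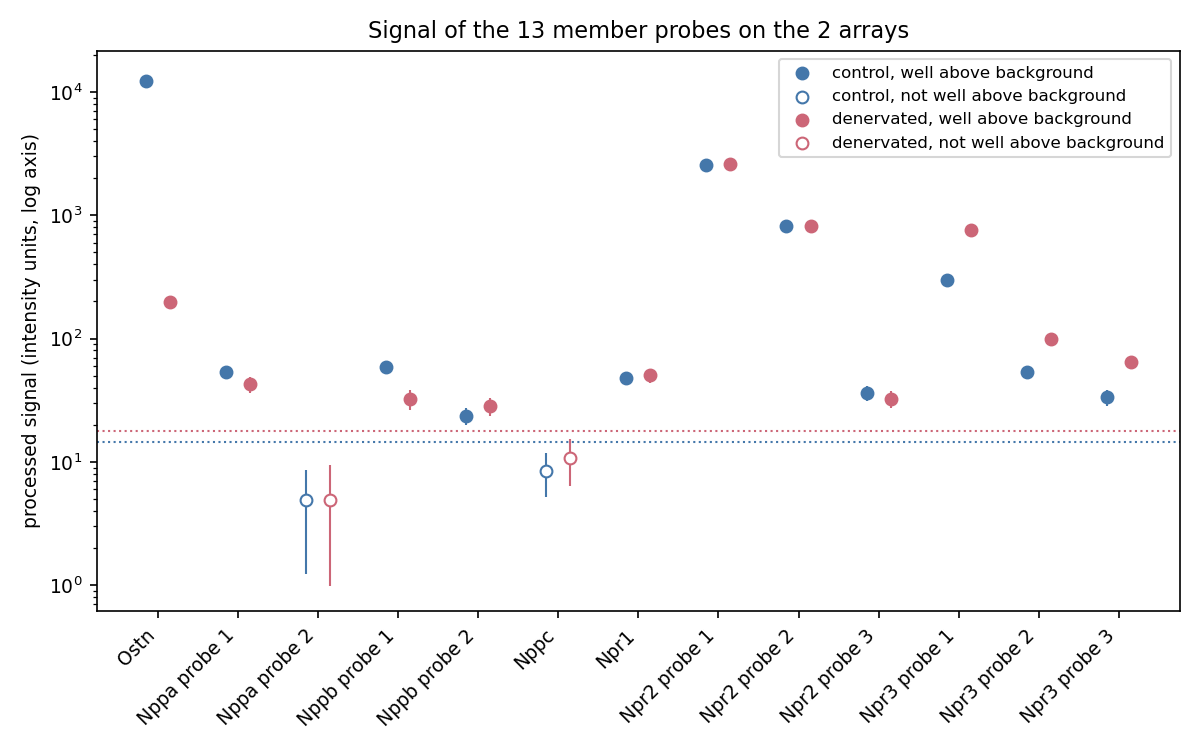
Processed signal in intensity units, on a log axis, of the 13 member probes on the control array and the denervated array. Bars are the scanner software's error, cut short where they would reach 0, open symbols are probes not well above background, and dotted lines mark the lowest signal that was well above background on each array. Ostn stood at 12177 and 199, the 3 Npr3 probes were each brighter on the denervated array, and Nppc and the second Nppa probe lay under the lines.

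Ostn had 1 probe on the array, for transcript NM_198112. The files place it on chromosome 16 from 27239963 to 27262161 of the mm8 assembly, on the plus strand. That interval of 22199 bases is far longer than the 60 bases of most member probes, so the probe's ends lie apart in the genome. No mm8 annotation was used, and whether a member probe lies in a coding exon or an untranslated region was not determined. The probe's signal was 12177 ± 1218 with control RNA and 199 ± 20.4 with denervated RNA. Relative to each array's 75th percentile, taken as 100, these were 1546 and 18.8. The denervated signal was 11.1 times the lowest signal that counted as well above background there, so this was a measured low value and not a bound.

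The Ostn difference was -6.36 ± 0.21, which leaves 1.21% of the control level in the denervated pool. It was the second lowest of the 15650 genes. In whole muscle, fewer cells that make a transcript and less transcript per cell cannot be told apart. Of all 15650 genes, 8950 lay below 0. The 10 skeletal muscle markers, which check the labelled tissue, were all measured, and 9 of them lay below 0 with a median of -0.47. Among the brightest of them, the fast troponin genes Tnnc2 and Tnnt3 stood at -0.50 ± 0.20 and -0.21 ± 0.20, and the lowest of the 10, Ckm for muscle creatine kinase, at -0.72 ± 0.20. With scaling to the spike-in controls the marker median was -0.09, and Tnnt3 stood at 0.18.

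The genes whose difference was nearest to that of Ostn were found by the absolute gap in log2 difference over the 2 arrays, leaving out clone, predicted and accession names. They were Aqp4, which encodes a water channel of fast fibres, with a gap of 0.16, Cntnap2 (0.51), Perm1, a regulator of the muscle oxidative programme (0.51), Mettl21c, a muscle methyltransferase (0.96), and then Gdap1, of the mitochondrial outer membrane. A gene known only by a clone name lay between Mettl21c and Gdap1. Only Aqp4 had a lower value than Ostn, and its other probe stood at -4.55. By the mean of probes or the smallest-difference probe Ostn ranked 1 from the lowest. It also ranked 1 with normexp background correction and with a strict filter on dim probes (at least 4 times the lowest detected signal). With no filter on dim probes it ranked 3. The control and denervated signals were 2431 and 35.6 for Aqp4, 963.8 and 22.4 for Cntnap2, and 17182 and 400.2 for Perm1. They were 9072 and 288 for Mettl21c, and 4428 and 205.4 for Gdap1. The lowest signal well above background on the denervated array was 17.9, so Aqp4 and Cntnap2 were dim there. Their technical errors were 0.27 and 0.34. Likeness over 2 arrays says no more than that these genes differed by a similar amount.

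**Figure D2:**
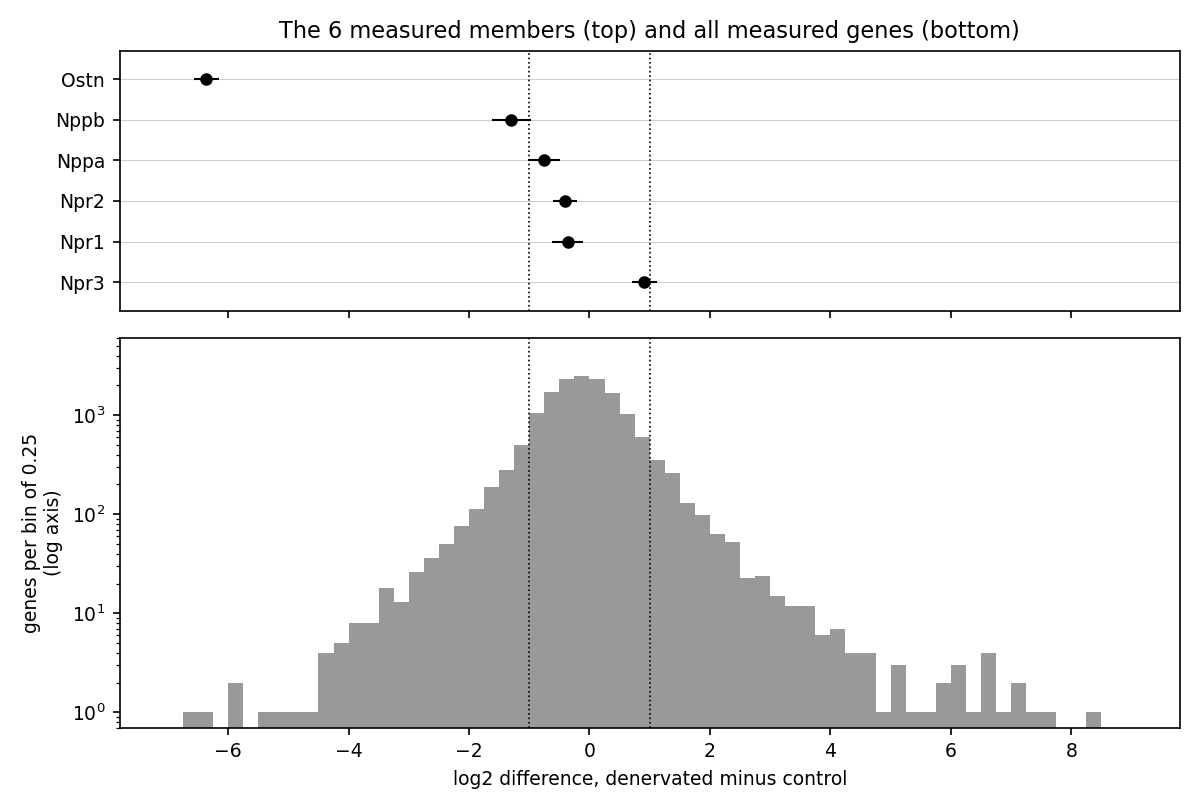
Top, the log2 difference (denervated minus control) of the 6 measured members by their brighter probe, with the technical error as bars. Bottom, the number of genes per bin over all 15650 measured genes, on a log axis, with dotted lines at 2-fold. Ostn at -6.36 lies at the low end of the distribution, while Npr1, Npr2, Nppa and Npr3 lie within 2-fold.

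Nppa and Nppb encode the atrial and B-type natriuretic peptides, both best known as hormones of heart muscle. They are neighbouring genes on chromosome 4. The starts of both genes are shown because the pair lies side by side and the brighter probe of each was lower in the denervated pool. The sequences are those of RefSeq on build GRCm38.p6, from 250 bases before to 50 bases after the annotated start, plus strand, at chr4:147985650-147985949 for Nppb and chr4:148000472-148000771 for Nppa. Capitals mark the E-box CAGCTG, a site type bound by myogenic factors, and the TATA box TATAAA.
Nppb: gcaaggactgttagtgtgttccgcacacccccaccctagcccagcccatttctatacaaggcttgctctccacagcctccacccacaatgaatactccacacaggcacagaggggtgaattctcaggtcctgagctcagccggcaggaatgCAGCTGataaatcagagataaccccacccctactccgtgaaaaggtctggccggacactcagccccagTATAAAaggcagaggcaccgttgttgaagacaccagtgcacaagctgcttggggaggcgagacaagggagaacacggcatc
Nppa: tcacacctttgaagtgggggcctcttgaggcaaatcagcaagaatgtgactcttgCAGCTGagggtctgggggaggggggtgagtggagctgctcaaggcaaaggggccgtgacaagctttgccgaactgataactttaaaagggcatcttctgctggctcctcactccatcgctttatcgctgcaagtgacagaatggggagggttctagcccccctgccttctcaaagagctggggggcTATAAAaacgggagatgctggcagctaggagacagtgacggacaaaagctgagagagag

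Each of these promoters held 1 CAGCTG and 1 TATAAA. Counted from the annotated start, their first bases lay at -99 and -31 in Nppb and at -195 and -9 in Nppa. Of all 32851 RefSeq promoter windows of this length, 16.3% held CAGCTG and 13.6% held TATAAA on either strand. Searched likewise on both strands, the FoxO motif TGTTTAC, the cyclic AMP element TGACGTCA and the MEF2 motif had no match in the windows of the 6 members that had one, against 3.65%, 1.79% and 3.19% of all windows. The GC box GGGCGG matched in Npr1 and Nppc (35.7% of all windows), CAGCTG also in Npr2 and TATAAA also in Nppc. None of these motifs overlapped another in the members. Ostn had no entry. The window of Npr3 had a GC content of 39% and matched none of the motifs, beside a median of 52.7% GC over all windows.

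Both Nppa probes were printed 10 times on each array. The probe on chromosome 4 at 146845715 to 146845774 (mm8) gave signals over its 10 spots of 40.3 to 66.5 with control RNA, with a median of 53.0, and of 28.6 to 52.7 with denervated RNA, with a median of 45.3. The ranges of the spots overlapped between the arrays. Set against each other by position, all 10 spots were lower on the denervated array, with or without scaling. The difference was -0.76 with an SD of 0.24 over the 10 spots, which are repeats of 1 pool and show only the precision of the spotting. With spike-in scaling the difference was -0.37.

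The second Nppa probe, at 146844738 to 146844900, was not well above background on either array in any of the spots used, with geometric mean signals of 4.91 and 4.95. The 2 probes thus disagree on whether Nppa was detected at all. Of 7 cardiac muscle markers, Myh6, Tnni3 and Myl4 were measured, with summed relative signals of 926 and 3096 in the control and denervated pools. Most of the denervated sum was Myl4, at 362 and 2727. Tbx5 passed background with neither RNA, and Myl7, Nkx2-5 and Ryr2 only with control RNA. The signals of these 3 were low, in turn 18.6 and 6.25, 21.6 and 20.8, and 27.1 and 21.5. Myl4, the atrial and embryonic myosin light chain, stood at 2.91 ± 0.20, and Myh6, alpha cardiac myosin, at -0.62 ± 0.20. The part of any of these in the Nppa and Nppb signals was not tested.

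The 2 Nppb probes gave different answers. The probe at chromosome 4, 146829755 to 146829814, had signals of 58.8 ± 7.05 and 32.3 ± 6.10 in the control and denervated pools. Its difference was -1.30 ± 0.32, which put Nppb among the members at least 2-fold lower. The probe at 146830180 to 146830239 had signals of 23.6 ± 3.76 and 28.4 ± 4.85, and a difference of -0.16 ± 0.34. With spike-in scaling the same probes stood at -0.91 and 0.22, so Nppb passed 2-fold by 1 probe and under some settings only. Both probes were dim. Among 30 probes printed 10 times with signals from 20 to 100 on both arrays, the median SD of a single spot's log2 difference was 0.18.

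Nppc encodes C-type natriuretic peptide, a local regulator of bone growth and vessels and the preferred ligand of the Npr2 receptor. Its 1 probe, on chromosome 1 from 88500831 to 88500890 on the minus strand, had signals of 8.51 ± 3.37 and 10.8 ± 4.43. Neither was well above background, so no fold is given.

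Npr3 was higher in the denervated pool by each of its 3 probes. The brightest, on chromosome 15 from 11784907 to 11784966 on the minus strand, gave 298.9 ± 30.1 and 757.7 ± 75.9 in the control and denervated pools, a difference of 0.91 ± 0.20. The probe at 11789913 to 11789972 gave 53.5 ± 6.45 and 99.6 ± 11.0, a difference of 0.46 ± 0.24. The probe at 11789449 to 11789508 gave 33.3 ± 4.64 and 64.4 ± 7.70, a difference of 0.52 ± 0.27. All 3 probes were thus brighter on the denervated array even before scaling, by less than 2-fold after it.

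The direction of Npr3 was the same under every alternative tried, and its size was not. With spike-in scaling its probes stood at 1.30, 0.85 and 0.91 in order of brightness, so that the brightest passed 2-fold. Of all genes, 8.04% had a higher difference than Npr3. A further probe, on chromosome 15 from 11847703 to 11847762, belongs to the cDNA AK040677, whose description in the files names an Npr3 product. It lies outside the rule and was picked out after its values were seen. Its signals were 59.0 ± 6.72 and 59.8 ± 7.27, a difference of -0.41 ± 0.24, which was not that of the 3 Npr3 probes.

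Npr2, the receptor for C-type natriuretic peptide, had 3 probes on chromosome 4. The brightest (43672118 to 43672177) had signals of 2572 ± 257 and 2613 ± 261, a difference of -0.41 ± 0.20 after scaling. The probe at 43669454 to 43669513 gave 820.7 ± 82.1 and 816.8 ± 81.8 (-0.44 ± 0.20), and the dim probe at 43653899 to 43654631 gave 36.1 ± 4.76 and 32.4 ± 5.17 (-0.59 ± 0.30). The raw signals of the 2 brighter probes were almost the same on both arrays, and the negative values come from the scaling. With spike-in scaling the 3 probes stood at -0.02, -0.05 and -0.20, so the direction of Npr2 is not settled.

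Npr1, the receptor for the atrial and B-type peptides, had 1 probe, on chromosome 3 from 90541176 to 90541669 on the minus strand. Its signals were 47.9 ± 5.71 and 50.2 ± 6.47, a difference of -0.36 ± 0.25. With spike-in scaling it stood at 0.03, so its direction was not settled either. Of the 3 receptor genes, Npr3 alone had a direction that held under all settings tried.

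**Figure D3:**
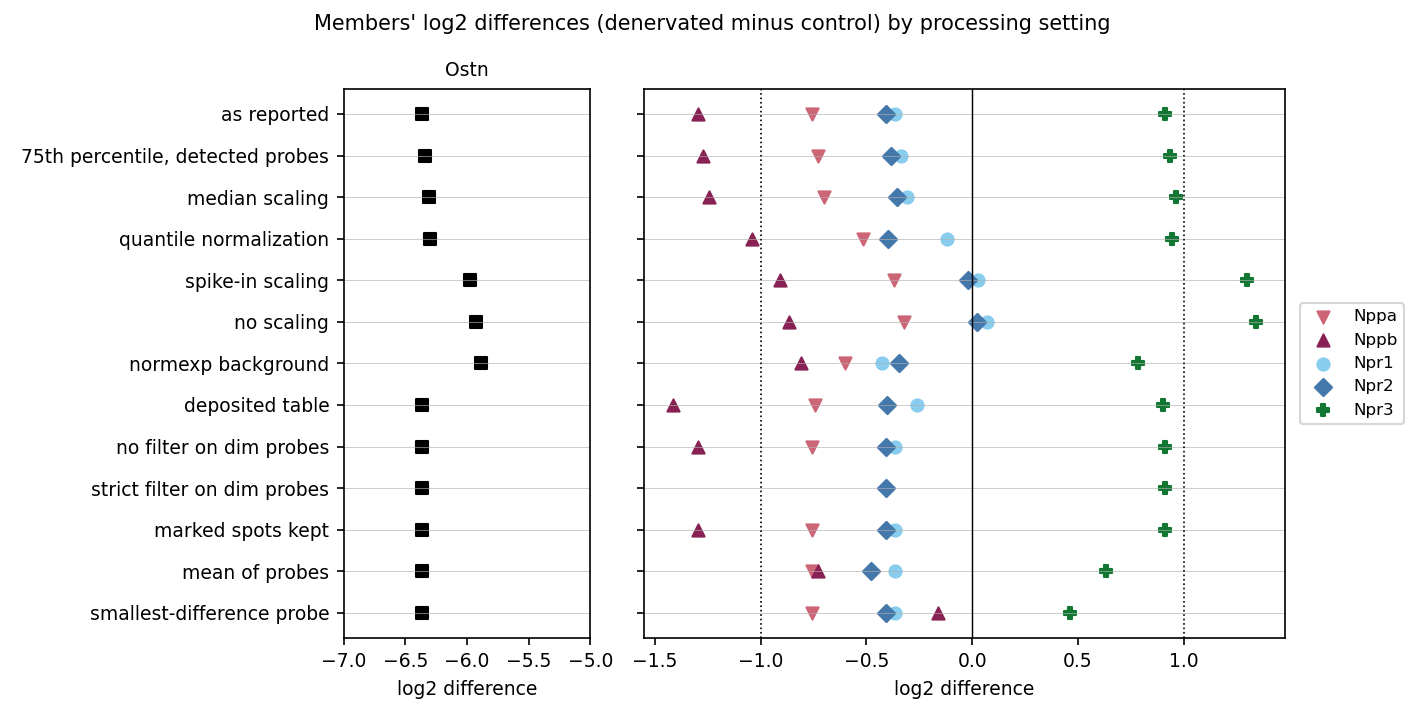
Log2 difference (denervated minus control) of Ostn, left, and of the other measured members, right, under the reported processing and 12 alternatives, with dotted lines at 2-fold. Ostn stays between -6.37 and -5.89 and Npr3 between 0.46 and 1.34, while Npr1 and Npr2 reach the other side of 0 with no scaling and, for Npr1, with spike-in scaling. The strict filter leaves Ostn, Npr2 and Npr3.

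The cell types that carry these receptors can be set beside the values. Endothelial markers, of the vessel lining, were all below 0 (10 of 10 measured, median -0.60), beside 8950 of all 15650 genes. Their summed signal relative to the 75th percentile, taken as 100, was 4798 and 2947 in the control and denervated pools. The brightest were Flt1 (-0.73 ± 0.20) and Egfl7 (-0.74 ± 0.20). Smooth muscle and pericyte markers had a median of -0.69 over 11 genes, with Acta2 at -0.54 ± 0.20 and Rgs5 at -0.60 ± 0.20. Their summed signals were 43520 and 30146, of which Acta2 alone made 38351 and 26321. These sums thus describe mainly that 1 gene. Its control signal of 302075 was close to that of the skeletal muscle marker Ckm, 307386. Adipocyte markers were below 0 in 7 of 7 (median -0.76, summed signals 1436 and 898), with the adipsin gene Cfd at -0.69 ± 0.20 and Cidec at -0.76 ± 0.20. The medians of these 3 lists were below 0 under all 12 alternatives, and with spike-in scaling they were -0.22, -0.30 and -0.37.

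Of all 15650 genes, 6700 were above 0. Fibroblast markers were above 0 in 7 of 10 (median 0.12, summed signals 33201 and 31737), with Dcn at 0.15 ± 0.20 and Gsn at -0.61 ± 0.20. All 8 macrophage markers were above 0, and 7 were at least 2-fold higher, beside 6.94% of all genes (median 1.67, summed signals 277 and 881). Among the brightest, the receptor genes Cd163 and Csf1r stood at 1.14 ± 0.20 and 1.33 ± 0.20. Other probes of Csf1r and Fcgr1 reached down to 0.64 and 0.77, short of 2-fold. Schwann cell markers had a median of -0.64 over 9 genes (summed signals 1439 and 822). By 2-fold or more 4 were lower and 1 was higher, beside 8.52% and 6.94% of all genes. Probes disagreed for 2 of these genes, named after their values were seen. Mbp stood at -1.38 ± 0.20 with other probes up to 1.87, and Ngfr, the higher one, at 2.47 ± 0.21 with its other probe at -0.16. Pmp22 stood at -1.55 ± 0.20 and S100b at -0.04 ± 0.20. Bone and cartilage markers, fixed because musclin is also known as osteocrin of bone, were measured in 5 of 8, with a median of -0.25 and 1 gene past 2-fold in each direction. Alpl stood at -1.04 ± 0.20, Col2a1 at 0.27 ± 0.21 (its other probe was at -0.53) and Runx2, a bone transcription factor named after its value was seen, at 2.39 ± 0.25. The part of these cells in the Ostn, Npr3 or peptide values was not tested.

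Genes that process and break down natriuretic peptides formed a further list. Of 6 on the list 5 were measured, and the median was -0.32, beside -0.11 for all genes. None passed 2-fold, beside 15.5% of all genes, and with 5 genes nothing is read from that. Furin, a protease that cuts peptide precursors, stood at 0.22 ± 0.20. Pcsk6, the protease that activates corin, stood at -0.81 ± 0.20. Mme encodes neprilysin, which degrades the peptides, and stood at -0.32 ± 0.23 with its other probe at 0.15, while the peptidase gene Dpp4 stood at -0.34 ± 0.21. Corin, which encodes the heart enzyme that cuts the atrial peptide precursor, was not well above background on either array. With spike-in scaling 4 of the 5 were above 0, beside 10532 of all 15650 genes.

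The cyclic GMP list held genes that make nitric oxide or cyclic GMP, break cyclic GMP down or act after it. Not all of them thus lie downstream of the receptors. Of 25 on the list 18 were measured, 17 of them were below 0, 2 were at least 2-fold lower and none was 2-fold higher. The 17 of 18 below 0 stand beside 8950 of all 15650 genes, and the 2 of 18 beside 8.52%. The list median was -0.62, beside -0.11. Scaled to the spike-in controls, the list had a median of -0.23 beside 0.28 for all genes. Its 6 genes above 0 then stand beside 10532 of all 15650. None of the list passed 2-fold, beside 654 lower and 2197 higher over all genes. Prkg1, the main cyclic GMP-dependent kinase, had the lowest difference at -1.22 ± 0.20, with its other probe at -0.99. The phosphodiesterase genes Pde3a and Pde1a followed at -1.04 ± 0.23 and -0.96 ± 0.21, the latter with other probes up to -0.23. Pde5a, a phosphodiesterase specific for cyclic GMP, stood at -0.26 ± 0.23. Endothelial and smooth muscle markers, whose medians are given above, lay at a similar distance below 0. So did Schwann cell, adipocyte and skeletal muscle markers, with medians of -0.64, -0.76 and -0.47. The part of any of these cells in the cyclic GMP list was not tested.

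Regulators of the kind known for Ostn, those of insulin signalling, FoxO and muscle activity, spread widely. Of 19 on the list 16 were measured, 5 were lower and 4 were higher by 2-fold or more, beside 8.52% and 6.94% of all genes. The median was -0.45, beside -0.11. Spike-in scaling gave the same counts of 5 and 4, while over all 15650 genes it gave 654 and 2197. This list, like the others, was chosen with earlier results of these data known, so nothing is read from the counts. The largest differences were those of Nr4a1, an orphan nuclear receptor induced by muscle activity (-3.63 ± 0.20), Hdac4, a histone deacetylase (2.86 ± 0.20), and Irs1, an adaptor of the insulin receptor (-2.77 ± 0.20, other probe -2.36). Irs1 had signals relative to the 75th percentile of 1617 and 238 in the control and denervated pools.

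Foxo1, the repressor named above, stood at 1.17 ± 0.20 by both of its probes, with relative signals of 364 and 816. The coactivator gene Ppargc1a stood at -2.02 ± 0.20, with its other probe at -1.52. The remaining genes past 2-fold, named after their values were seen, were Akt1 (1.61 ± 0.20) and Akt2 (1.16 ± 0.20), kinases of the insulin pathway, and Hdac9 (-2.14 ± 0.21) and Ppargc1b (-1.60 ± 0.20). The 4 probes of Ppargc1b reached up to -0.85, short of 2-fold. The insulin receptor gene Insr was dim and stood at -0.01 ± 0.25. Foxo3 was dim, with signals of 28.9 and 11.4 in the control and denervated pools. It was well above background on the control array only, where it was higher by at least 2.17-fold with the reported scaling, leaving out the spot error. For such a bound the dim side was put at its own signal or, where that was lower, at the array's lowest signal well above background. Whether any of these differences bears on Ostn was not tested.

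**Figure D4:**
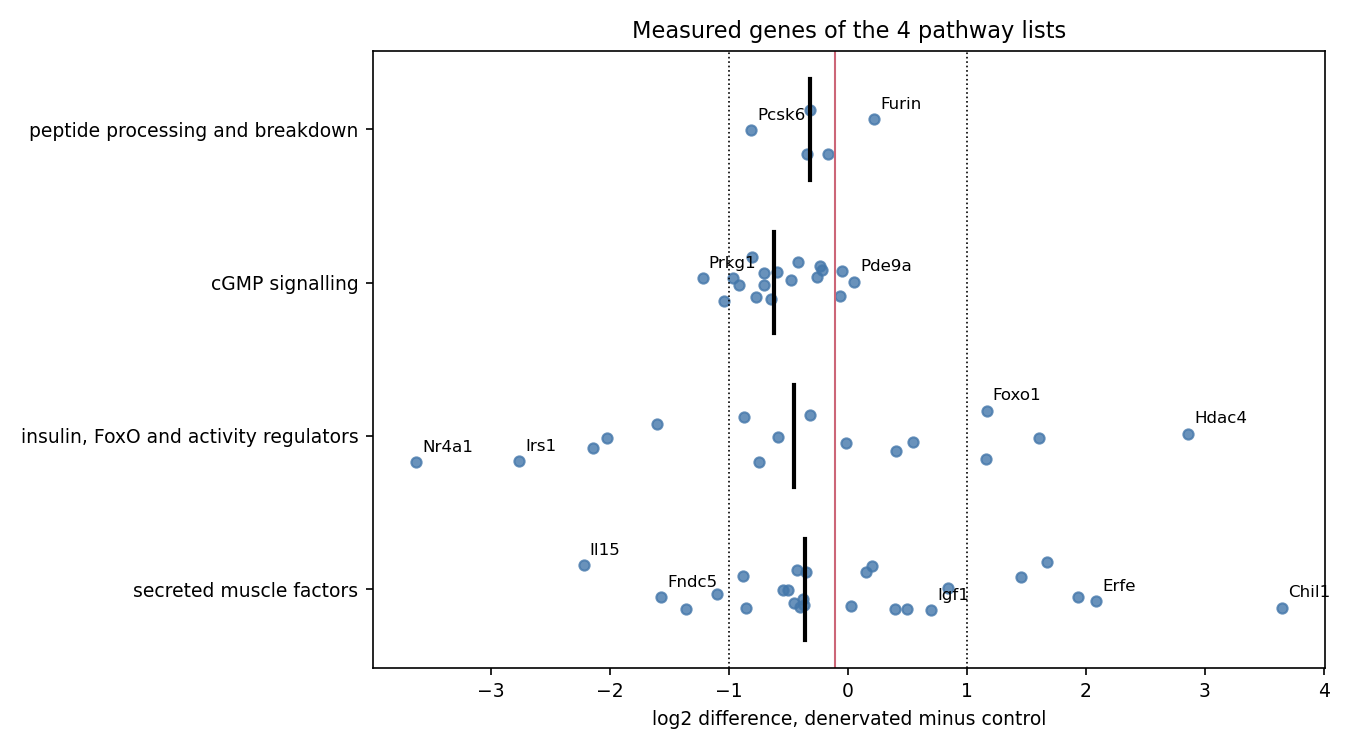
Log2 differences (denervated minus control) of the measured genes of 4 pathway lists, 1 point per gene. Black bars are list medians, the red line is the median of all genes at -0.11, and dotted lines mark 2-fold. The cyclic GMP genes lie between -1.22 and 0.05, whereas the insulin, FoxO and activity genes spread from -3.63 to 2.86. Points are spread vertically only so that they can be seen.

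Other secreted factors of muscle were compared with Ostn because musclin belongs to them. Of 31 on the list 26 were measured, 4 were lower and 5 were higher by 2-fold or more, beside 8.52% and 6.94% of all genes, and the median was -0.36, beside -0.11. With spike-in scaling 2 were lower and 7 higher, with a median of 0.03, beside 654 and 2197 of all 15650 genes and a median of 0.28. No measured gene of this list was lower by as much as Ostn, whose value was the one the set was chosen on. The lowest was Il15, interleukin 15, at -2.22 ± 0.21, with its other probe at -0.83. Fndc5, the precursor of irisin, stood at -1.57 ± 0.20 with its other probe at -1.48. Mstn, the growth inhibitor myostatin, stood at -0.50 ± 0.20, or -0.11 with spike-in scaling, and Igf1, a growth factor, at 0.70 ± 0.20.

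At the other end, Chil1, which encodes a chitinase-like protein, stood at 3.65 ± 0.32 and Erfe, the hormone erythroferrone, at 2.08 ± 0.33. Both were dim in the control pool, with relative signals of 2.18 and 2.56. Above background on one array only, and named after their values were seen, were Fgf6 and Fgf2, higher in control muscle by at least 23.4-fold and 2.92-fold, and Fgf21, higher in denervated muscle by at least 6.63-fold. Fgf6 had signals of 310.3 and 13.1 in the control and denervated pools, Fgf2 of 39.9 and 18.4, and Fgf21 of 2.88 and 129.8. Il7 was not well above background on either array, and Lif had no probe under this symbol.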

How the data were processed

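RNA pools of 6 control and of 6 denervated mice were compared, 1 array each, grouped by the source label. Both arrays lay on one slide, so slide position and group cannot be told apart. Each hybridisation took 1.65 µg of cRNA labelled with Cy3, per the labels. Feature Extraction 9.5 from Agilent is named in the submitters' processing notes, and 9.5.3.1 per the file headers, as the software behind the deposited intensity values. It had subtracted background, detrended within arrays, given dim spots a surrogate value and assumed a multiplicative error of 10%, per the file headers. A second file from the authors is a table of whole numbers, treated as a score. Compared with the scanner files, this score proved to be processed intensity scaled so that the 75th percentile over all 45018 spots is 100, with column medians of 10 and 9. It served as an alternative. No sample column was left unused.

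Spots marked non-uniform or as population outliers (87 and 81) were left out, and repeated spots were averaged as log2 values. From each log2 intensity the log2 of its array's 75th percentile (788 and 1063, over 41174 probes) was subtracted. A probe was measured when well above background on both arrays (70.9% and 68.4% of probes passed on each) and saturated on neither. A gene took its brightest measured probe. The technical error is the software's relative error, averaged over spots and combined over arrays. Its median over genes was 0.20. Of the probes, 23374 were named through RefSeq accessions (GRCm38.p6, names only) and the others kept the file's name. In all, 34433 probes carried a symbol. Promoters came from RefSeq tables of the same build, and 6 of the 7 members matched. A test was not possible with 1 array per group, and the number of arrays limits the precision. The summary was tested on simulated data with Python 3.11.15, pandas 2.3.3 and numpy 2.4.6, and normexp used limma 3.58.1 under R 4.3.3.

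Genes named were all members, the 5 genes nearest to Ostn in difference (clone, predicted and accession names left out), the 3 largest absolute differences of each pathway list with a few fixed genes, and the 2 brightest genes of each marker list, with exceptions marked in the text. The members and lists were chosen with earlier results of these data known. Alternatives covered scaling, background correction, the deposited table, dim probes, marked spots and the choice of probe.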

Additional observations from a re-analysis of the deposited data

How the results depend on the processing

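The Ostn difference of -6.36 stayed below 0 under all 12 alternatives. It was -5.98 with spike-in scaling, -5.93 with no scaling and -5.89 with normexp background correction, and was within its technical error of the reported value in the other 9. Its place among all genes from the lowest was 1 to 3. The count of members at least 2-fold lower, 2 as reported, was 1 with spike-in scaling, no scaling, normexp, the strict filter on dim probes, the mean of probes and the smallest-difference probe, and Ostn was then the 1 left. The count of members at least 2-fold higher, 0 as reported, was 1 (Npr3) with spike-in scaling and with no scaling. Npr3 ranged from 0.46 to 1.34, Nppb from -1.42 to -0.16 and Nppa from -0.76 to -0.32. Npr1 ranged from -0.43 to 0.07 and Npr2 from -0.48 to 0.02.

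Over all genes, 1333 were at least 2-fold lower and 1086 higher as reported, so that 44.9% of genes past 2-fold were higher ones. Spike-in scaling gave 654 and 2197 (77.1% higher) and no scaling 609 and 2409 (79.8% higher), since they move every gene up by 0.39 and 0.43. With no filter on dim probes 2567 were lower. Spike-in scaling rested on 8 control probes. Depth in the sense of signal over background limits Nppa, Nppb and Npr1, which the strict filter (at least 4 times the lowest detected signal) left out. Leaving out a replicate was not possible with 1 array per group. No value here estimates the spread between mice.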
